A study of Mus musculus with 2 samples.

Results

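The 10 genes described here make, activate, move, modify and remove sialic acid: Gne, Nans, Nanp, Cmas, Slc35a1, Casd1, Slc17a5, Neu1, Neu3 and Npl. They were taken by gene symbol from the deposited expression values of C2C12 cells, and all 10 were found among 21829 genes. C2C12 is an immortalised mouse myoblast line. The series holds 1 library of each of 2 lines: the parental line, of genotype WT, and a line of genotype GNE KO, here KO. The study made KO by Cas9 editing of exon 2 of Gne and expansion of single clones, so the KO library stands for a clone and the WT library for the parental line. Both lines were grown in medium with 10% serum and received no other treatment according to the labels. The comparison asks how the transcriptome of C2C12 cells differs between these 2 lines. Their myoblast markers also differed, as given at the end of these results. With 1 library per line no difference has a replicate check, and no p-value is given.

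Sialic acids are acidic sugars at the outer ends of the glycans of glycoproteins and gangliosides. Gne converts UDP-GlcNAc into ManNAc with its epimerase domain and phosphorylates ManNAc with its kinase domain, and this is the controlled entry step of the pathway. Nans and Nanp complete sialic acid, Cmas activates it to CMP-sialic acid in the nucleus, and Slc35a1 carries that donor into the Golgi, where sialyltransferases use it. Sialidases such as Neu1 and Neu3 take sialic acid off again, the lysosomal exporter Slc17a5 returns it to the cytosol, and Npl breaks it down. In humans, recessive GNE mutations cause GNE myopathy, a disease of skeletal muscle.

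The reference sequence of the edited part of Gne is given first, because it shows what the RNA value of this gene can and cannot tell. Gne lies on the minus strand of chromosome 4, from 44034074 to 44084187 in GRCm39, with coordinates and transcripts from GENCODE vM39. Of its 27 protein-coding transcripts 25 contain the same exon 2, from 44066755 to 44066960. The transcript Gne-201 starts its reading frame in exon 1 and adds 31 codons in front of an ATG in exon 2, at which other transcripts begin. Both coding stretches are printed from 5′ to 3′ on the coding strand, the first at chr4:44084048-44084098 and the second at chr4:44066755-44066918. Capitals mark the ATG of each, and in exon 2 also the 3 TGA triplets that come into frame when 1 base is inserted anywhere between the ATG and the triplet.
Gne-201 exon 1: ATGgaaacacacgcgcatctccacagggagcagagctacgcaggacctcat
Gne exon 2: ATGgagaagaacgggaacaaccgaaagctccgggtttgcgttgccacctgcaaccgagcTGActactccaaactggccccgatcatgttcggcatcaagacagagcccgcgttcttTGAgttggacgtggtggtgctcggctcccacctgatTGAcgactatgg

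The 3 shifted stops begin at bases 60, 117 and 153 counted from the A of the exon 2 ATG. They are codons 21, 40 and 52 of the shifted frame, counted from this ATG. The study describes an insertion of a T-A base pair. Such an insertion shifts the frame but removes no part of the gene, so reads from the edited transcript still align to it. How the shifted stops affect the amount of the transcript was not tested. Exon 2 makes up 3.82% of the 5394 bases of Gne-201 and the last exon 60.8%. The annotation's canonical transcript has 2920 bases, so these shares hold for Gne-201 only. Read on Gne-201, a value per gene rests mostly on sequence downstream of the edit. The value of Gne therefore does not check the genotype label of either library.

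Gne stood at 6.67 FPKM in WT and at 7.34 FPKM in KO. FPKM are fragments per kilobase of transcript, scaled to the size of the library, so levels of different genes can be compared within a library. The KO library was the higher by 0.666 FPKM, which is 110% of the WT value and a log2 fold change of 0.12 on the log2(FPKM + 1) scale used for all fold changes here. The gene's RNA was thus not lower in the KO library. A filter kept the 10542 genes whose mean over both libraries reached 1 FPKM, and 70.3% of them differed more between the libraries than Gne did.

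The last bases of Gne overlap those of its neighbour Clta, which encodes a clathrin light chain and lies on the opposite strand. The shared exonic stretch is 321 bases long, from 44034074 to 44034394. Clta had 129 FPKM in WT and 142 FPKM in KO, a log2 fold change of 0.13. The study's methods describe strand-specific libraries made with an MGI kit. Their kit, RNA amount and read length differ from the labels, which name an Illumina kit, 2 µg and 75 bp. Whether that description holds for these libraries, and whether the counting used the strand, is not given in the sources used here. Without strand, reads of this stretch cannot be told apart between the 2 genes.

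The genes around Gne were compared, since the edit was made in this region. Toward lower coordinates, the nearest genes past the filter were Clta, Glipr2 and Hint2. Glipr2 had 29.4 and 46.3 FPKM in the WT and KO libraries, and Hint2, a mitochondrial nucleotide hydrolase, had 7.99 and 17.5 FPKM. The log2 fold changes of these genes were 0.64 and 1.04. On the other side lay Melk, with 12.4 and 13.1 FPKM, and Zcchc7, with 11.9 and 9.43 FPKM. Within 5 Mb on either side 72 other genes passed the filter. Their median log2 fold change was -0.05. Beyond a 2-fold change were Hint2 on the higher side and Galt, with a log2 fold change of -1.41, on the lower side. Gne and these 72 genes had values in both libraries, with no shared shift to one side. Genes under the filter, some of them at 0 in 1 library, are not part of this comparison.

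**Figure D1:**
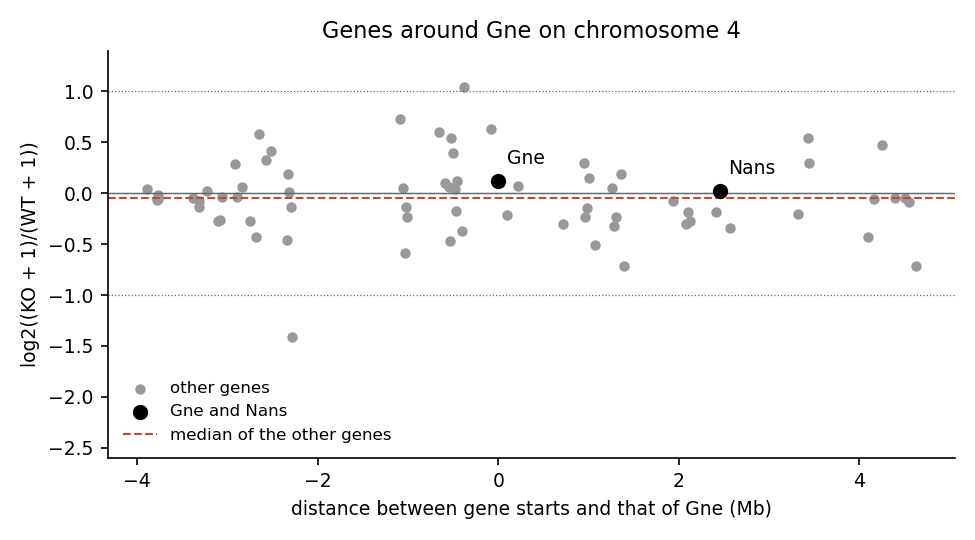
Log2 fold change of KO against WT (vertical axis, log2((KO + 1)/(WT + 1))) for genes past the filter, placed by the distance of their start from that of Gne in Mb (horizontal axis). Each point is 1 gene, black for Gne and Nans, the dashed line is the median of the others, -0.05, and the dotted lines mark 2-fold changes. Gne at 0.12 and Nans at 0.02 lie among their neighbours.

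Of the 10 genes, 7 passed the filter, and Nanp, Neu3 and Npl did not. Casd1 passed through its KO value alone and was listed at 0 in WT. Of the 6 others, 0 exceeded a 2-fold difference in either direction. Over all 10542 genes, with the pseudocount standing in for zeros, the shares were 2.84% higher and 3.43% lower, and counts of 0 among 6 genes do not set them apart. The median log2 fold change of the 6 genes was 0.10, against 0.0061 over all genes. Of the 6 genes 4 lay inside the interquartile range of all genes, from -0.21 to 0.23, and Neu1 and Slc17a5 lay above it.

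**Figure D2:**
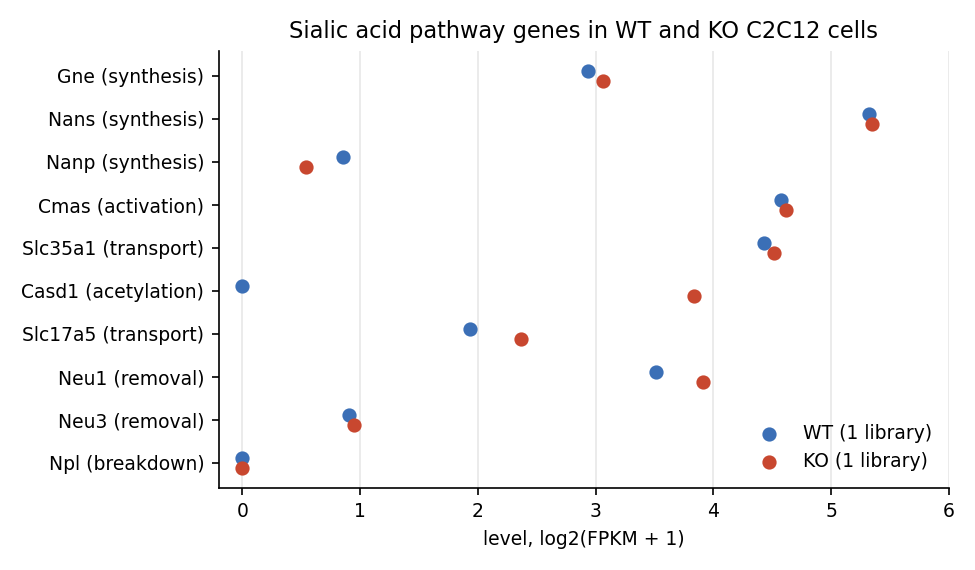
Level of each of the 10 genes in the WT library (blue) and the KO library (red), as log2(FPKM + 1) on the horizontal axis, with genes ordered by their role. Each point is 1 library, so there are no error bars. The paired points nearly coincide for Nans, Cmas, Slc35a1 and Neu3, are furthest apart for Casd1, which is at 0 in WT and at 13.3 FPKM in KO, and are both at 0 for Npl.

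Nans, Cmas and Slc35a1, which act after Gne, had nearly the same values in both libraries. Nans is sialic acid synthase. It joins phosphorylated ManNAc to phosphoenolpyruvate, and had the highest level of the 10 genes in each library. It had 39.1 FPKM in WT and 39.7 FPKM in KO, a log2 fold change of 0.02. Nans lies on chromosome 4 from 46489248 to 46503632, which is 2.46 Mb from Gne. It overlaps Trim14 on the opposite strand by 1356 exonic bases, and Trim14 had 0 and 0.034 FPKM.

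Cmas, which couples sialic acid to CMP, had 22.9 FPKM in WT and 23.5 FPKM in KO, a log2 fold change of 0.04. Slc35a1, the Golgi transporter of CMP-sialic acid, had 20.6 FPKM in WT and 21.9 FPKM in KO, a log2 fold change of 0.08. These genes of activation and donor transport lay close to each other in level, and 89.7% and 79.3% of all genes differed more between the libraries than Cmas and Slc35a1 did. Gne, the entry enzyme, had a lower level than either. It stood at 17.1% of the Nans value in WT and 18.5% in KO, and at 29.2% and 31.2% of the Cmas value.

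Nanp, the phosphatase that takes the phosphate from newly made sialic acid, was the lowest of the synthesis genes. It had 0.807 FPKM in WT and 0.452 FPKM in KO, both under the filter. Its log2 fold change was -0.32, and it was the single gene of the 10 with a lower value in KO. It shares 146 exonic bases with Ninl on the same strand, which had 3.77 and 3.30 FPKM, so reads of that stretch cannot be told apart between them. Without a pseudocount, the KO value of Nanp was 56.0% of the WT value, a log2 ratio of -0.84. The size of each library was estimated from the steps between low values, which made WT about 1.17 times as deep as KO and put about 144 and 69 fragments behind these values. For Gne the same estimate gave 530 and 496 fragments. These numbers take the length of the annotation's canonical transcript, which for Gne has 2920 bases and is not Gne-201, and are approximate.

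Casd1, the enzyme that transfers acetyl groups to CMP-sialic acid in the Golgi, differed most. WT listed it at 0, whereas KO gave it 13.3 FPKM. No fold is given, because the files hold no counts and a 0 does not tell an absence of fragments from a missing estimate. For its canonical transcript of 4.14 kb, the KO value corresponds to about 1277 fragments, and 1 fragment in the WT library would give about 0.0089 FPKM. Its level in KO was close to that of Neu1 and above that of 57.7% of the genes with a value in that library.

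A value of 0 in the presence of a clear level in the other library was rare. Of the 10542 genes past the filter, 19 were at 0 in WT and 16 in KO. At least 5 FPKM in KO with 0 in WT was seen for 7 genes, and Casd1 had the third highest KO value of them. Higher were Rbpms with 14.9 FPKM and Smim20 with 13.5 FPKM, and lower were Defb41, Sdr39u1, Pawr and Svep1. The reverse, 0 in KO with at least 5 FPKM in WT, was seen for Igfbp2 at 60.0 FPKM and Myod1 at 59.97 FPKM. Among 133 ribosomal protein, proteasome and RNA polymerase II subunit genes, most of which nearly every cell uses, 6 were at 0 in at least 1 library. These 6 were Psma8, Psmb8, Psmb11, Rpl10l, Rpl39l and Rpl3l, forms with expression limited to certain tissues or to immune stimulation. Whether the 0 of Casd1 in WT is of the same kind was not tested.

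Casd1 lies on the plus strand of chromosome 6, from 4600659 to 4643356 in GRCm39, and shares 112 exonic bases with the antisense transcript Gm33959. It starts 59.1 kb after the end of Col1a2, a fibrillar collagen gene, and is followed by the imprinted genes Sgce and Peg10. The genes of this stretch were looked at after the value of Casd1 was known. Col1a2 had 237 FPKM in WT and 621 FPKM in KO, and Sgce, which encodes a sarcoglycan, had 7.40 and 13.4 FPKM. Peg10 went the other way, with 19.3 FPKM in WT and 4.70 FPKM in KO, a log2 fold change of -1.83. Neighbours thus differed in both directions.

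Within 1.5 Mb of Casd1, 19 other genes had entries and 11 passed the filter. Slc25a13, a mitochondrial carrier gene 1.44 Mb away, was likewise listed at 0 in WT and had 2.42 FPKM in KO. Of the filtered genes above 0 in both libraries, Col1a2 and Samd9l were more than 2-fold higher in KO, and Peg10 was lower by more than that. Over all genes past the filter, with the pseudocount standing in for zeros, the shares were 2.84% higher and 3.43% lower. Over the 19 genes past the filter within 5 Mb the median log2 fold change was 0.14. The part of this surrounding in the value of Casd1 was not tested.

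**Figure D3:**
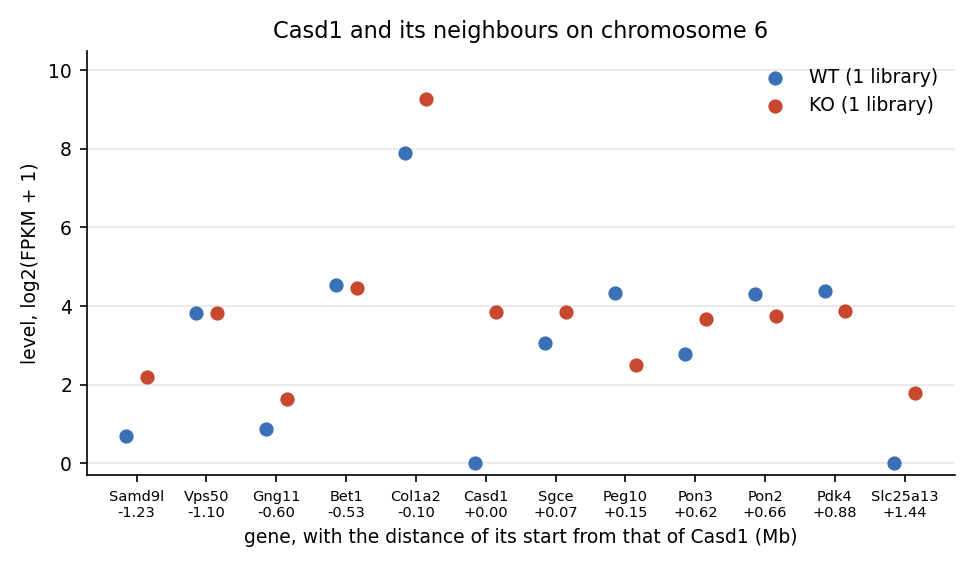
Levels, as log2(FPKM + 1) on the vertical axis, of Casd1 and of the genes within 1.5 Mb that reach 1 FPKM in at least 1 library, in the order of their start and with that distance in Mb under each name. Blue points are the WT library and red points the KO library, without error bars. Casd1 and Slc25a13 are at 0 in WT, Col1a2 and Sgce are higher in KO, and Peg10 is lower.

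Neu1 and Slc17a5, which serve removal and recovery of sialic acid in the lysosome, had higher values in the KO library. Neu1, the lysosomal sialidase whose loss causes sialidosis in humans, had 10.4 FPKM in WT and 14.0 FPKM in KO. This is 135% of the WT value and a log2 fold change of 0.40. Slc17a5, or sialin, which lets free sialic acid out of the lysosome, had 2.82 FPKM in WT and 4.16 FPKM in KO, 148% of the WT value and a log2 fold change of 0.44.

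Neither gene reached a 2-fold change. Of all genes 14.3% had a larger log2 fold change than Neu1 and 12.7% a larger one than Slc17a5. The genes within 5 Mb of Neu1 on chromosome 17 had a median log2 fold change of -0.02 and those of Slc17a5 on chromosome 9 of -0.07, so the differences of 0.42 and 0.51 over these medians were slightly larger than the values themselves. About 1108 and 1272 fragments were estimated for Neu1 and 249 and 313 for Slc17a5 in WT and KO. An antisense transcript, 1110038B12Rik, overlaps 431 exonic bases of Neu1, and its reads cannot be told apart without strand.

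The partners of Neu1 were read alongside, since the lysosomal sialidase works in a complex with cathepsin A (Ctsa) and beta-galactosidase (Glb1). Ctsa had 113 FPKM in WT and 121 FPKM in KO, a log2 fold change of 0.10. Glb1 had 11.8 and 15.4 FPKM, a log2 fold change of 0.36. Like Neu1 and Slc17a5, both had the higher value in KO, as did 50.7% of all genes past the filter.

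Neu3, the sialidase of the plasma membrane that acts on gangliosides, was low in both libraries. It had 0.869 FPKM in WT and 0.927 FPKM in KO, under the filter, with a log2 fold change of 0.04. Npl, the lyase that splits sialic acid into ManNAc and pyruvate, was listed at 0 in both libraries. In order of level, the WT library had Nans, Cmas, Slc35a1, Neu1, Gne, Slc17a5, Neu3 and Nanp, with Casd1 and Npl at 0. The KO library had the same order, with Casd1 between Neu1 and Gne. Whether neighbours in this order differ cannot be said without replicates.

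**Figure D4:**
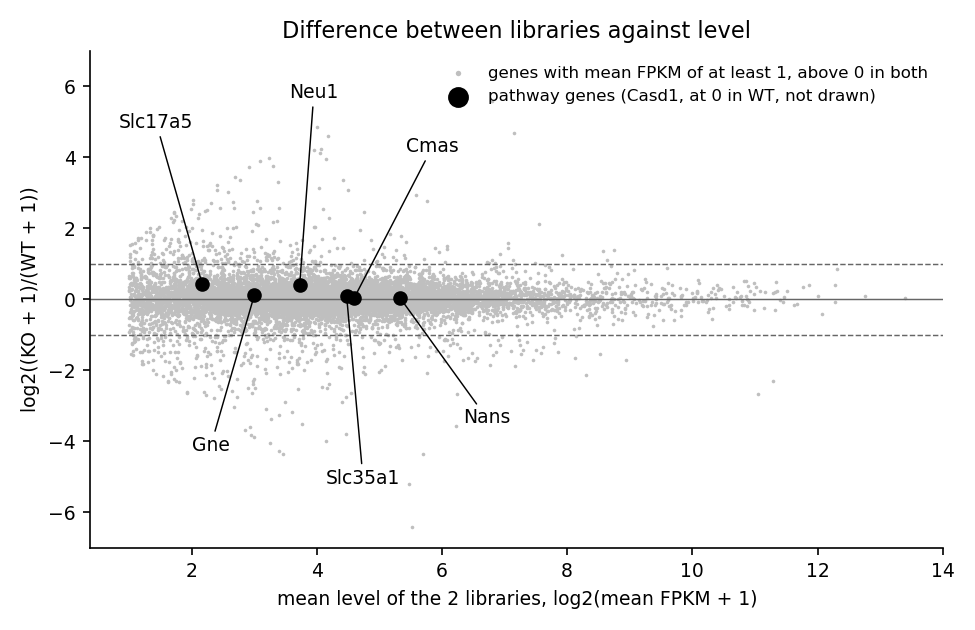
Log2 fold change of KO against WT (vertical axis) against the mean level of the 2 libraries, log2(mean FPKM + 1) (horizontal axis). Grey points are genes past the filter that lie above 0 in both libraries, black points are the 6 pathway genes among them, and dashed lines mark 2-fold changes. The 6 genes lie between 0.02 and 0.44, inside the band of most genes.

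Further genes that handle sialic acid were read from a list of 8. Past the filter were 4 of them, 0 were more than 2-fold higher or lower, and their median log2 fold change was 0.14, against 0.0061 over all genes. Among the 4, the largest differences were those of Glb1 and of Renbp, an enzyme that interconverts GlcNAc and ManNAc. Renbp had 43.1 FPKM in WT and 48.9 FPKM in KO, a log2 fold change of 0.18. Neu4 was listed at 0 in both libraries. Cmah, which turns CMP-sialic acid into its glycolyl form in mice, was listed at 0 in WT and had 0.059 FPKM in KO. Siae, an esterase that removes the acetyl groups that Casd1 adds, was under the filter with 0.802 and 0.322 FPKM, a log2 fold change of -0.45.

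The supply of UDP-GlcNAc, the substrate of Gne, was followed through 9 genes. Of these 7 passed the filter, 0 were more than 2-fold higher or lower, 4 were higher and 3 lower in KO, and the median was 0.12. Among the 7, Gfpt1, the rate-limiting enzyme of the hexosamine pathway, had the largest difference, with 15.4 FPKM in WT and 25.7 FPKM in KO and a log2 fold change of 0.70. Of all genes 5.49% had a larger one. Uap1l1, a relative of the UDP-GlcNAc pyrophosphorylase Uap1, had 48.9 and 64.7 FPKM, a log2 fold change of 0.40. Gnpda2, a glucosamine phosphate deaminase just under the filter, was listed at 0 in WT and had 1.93 FPKM in KO. Gfpt2 was listed at 0 in both libraries.

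The sialyltransferases, which use the product of the pathway, formed a list of 20. Past the filter were 8, of which 4 were higher and 4 lower in KO, with a median log2 fold change of 0.16. More than 2-fold higher was 1, St6gal1, which adds the alpha-2,6-linked sialic acid of N-glycans. St6gal1 had 1.84 FPKM in WT and 5.10 FPKM in KO, a log2 fold change of 1.10, and 2.35% of all genes had a larger one. St6galnac4, which acts on O-glycans, had 37.2 and 24.6 FPKM, a log2 fold change of -0.58. The remaining 6 ran in both directions, from St3gal2 with 23.5 and 33.2 FPKM to St3gal1 with 15.3 and 13.5 FPKM. Listed at 0 in both libraries were 7: St6gal2, St6galnac1, St6galnac2, St6galnac5, St8sia1, St8sia2 and St8sia6.

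Lectins that bind sialic acid are mostly proteins of leukocytes and vessels, and 2 of a list of 12 passed the filter. Siglecg had 0.614 FPKM in WT and 1.89 FPKM in KO, and Siglec15 had 0.609 and 1.52 FPKM. Their log2 fold changes were 0.84 and 0.65, and both passed the filter through their KO values. Selp, a selectin of the same list, had 1.03 FPKM in WT and 0.086 FPKM in KO, a log2 fold change of -0.90, and did not pass. Cd22, Siglece and Siglech were listed at 0 in both libraries. Among 3 carriers of polysialic acid, Nrp2 had 54.9 and 82.2 FPKM, a log2 fold change of 0.57, and Cadm1 had 14.5 and 16.8 FPKM, a log2 fold change of 0.20. Ncam1, the main carrier, had 14.7 and 13.0 FPKM. The median of the 3 carriers was 0.20, with 0 of them beyond a 2-fold change.

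From a list of 4 proteins reported to bind Gne, 1 passed the filter. This was Actn1, an alpha-actinin that crosslinks actin filaments, with 113 FPKM in WT and 131 FPKM in KO and a log2 fold change of 0.21. Actn2 and Zbtb16 were listed at 0 in both libraries.

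**Figure D5:**
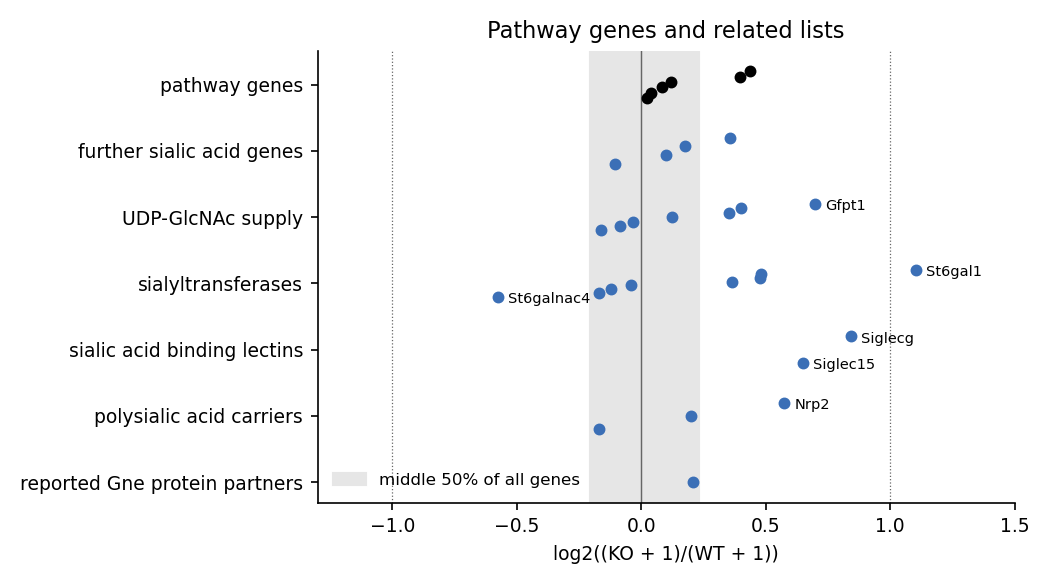
Log2 fold change of KO against WT (horizontal axis) for each gene past the filter that lies above 0 in both libraries, in 7 rows for the pathway genes (black) and the further lists (blue). Each point is 1 gene, the grey band spans the interquartile range of all genes, from -0.21 to 0.23, and dotted lines mark 2-fold changes. St6gal1 at 1.10 is the gene beyond the 2-fold line.

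The libraries also differed in markers of cell identity, and these values stand beside all those given above. Of 8 myoblast markers 6 reached 1 FPKM in WT and 3 in KO, with sums of 231 and 77.1 FPKM. Myod1 went from 59.97 FPKM in WT to a listed 0 in KO, and Des from 97.6 to 3.84 FPKM. Cdh15 had 16.6 and 0.701 FPKM, and Chrna1 had 15.3 and 0.917 FPKM. Vcam1, with 32.1 FPKM in WT and 51.3 FPKM in KO, and Myf5, with 9.14 and 20.3 FPKM, went the other way. Most of the KO sum came from Vcam1. Pax7 was at 0 in both. Of 6 fibroblast markers 2 reached 1 FPKM in WT and 4 in KO, with sums of 21.1 and 321 FPKM. Most of the KO sum came from Col1a1, with 9.66 FPKM in WT and 273 FPKM in KO. Postn had 0.44 FPKM in WT and 33.9 FPKM in KO, and Dcn had 0.272 and 1.68 FPKM. Pdgfra had 10.8 and 12.3 FPKM, and Thy1 and Lum were at 0 in both. The 5 leukocyte markers summed to 2.85 and 1.06 FPKM, all from Cd68, and those of endothelium, epithelium, adipocytes and neurons to at most 0.159 FPKM in either library. In bulk RNA, fewer cells of a type and less RNA per cell cannot be told apart. The part of these markers in the values of the pathway genes was not tested. What is particular to the expanded clone and what came with the edit cannot be told apart.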

How the data were processed

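RNA of 1 WT and 1 KO culture of C2C12 cells was sequenced. Each library's file, as the authors deposited it, lists gene symbols with values that were read as FPKM, judging from the column totals of 568543 and 574253 and from the steps between low values, since the header names no unit. According to the methods, reads were trimmed (TrimGalore), aligned with STAR against GRCm39 and quantified by RSEM, whereas the submitters' processing notes list Trim Galore 0.6.6, STAR 2.7.9a, RSEM 1.3.3 and GRCm38. The files hold no coordinates. Positions, lengths and sequence were read from GENCODE vM39 and GRCm39, where 10171 of 10542 filtered symbols matched. Symbols occurred again in 24 of 21853 rows, and the entry of higher mean was used. The scale, filter and 2-fold limit were those named with the results.

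The genes and lists were chosen with earlier results of these data known. Named genes of a list are those past the filter with a log2 fold change beyond 0.5, or the 2 largest differences. Galt, the genes around Casd1, Ctsa, Cmah, Siae, Gnpda2, Selp, Ninl, Ncam1, St3gal1 and St3gal2 fall outside that rule. So do the housekeeping genes at 0 and, apart from Casd1 and Myod1, the genes at 0 in 1 library with at least 5 FPKM in the other. All of these were named after their values were seen. No gene was named for a pattern like that of Gne, since with 2 libraries a pattern is 1 ratio. Library size was estimated from the lowest peak of value times transcript length in 67 and 75 genes with 1 transcript of at least 500 bases, below a limit of 0.06 set after the values were seen. Some genes that the naming rule takes in are not reported here. The planned count model was not run, because no counts were held. The scripts were tested on simulated data. Python 3.11.15, numpy 2.4.6, pandas 2.3.3 and scipy 1.17.1 were used.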

Additional observations from a re-analysis of the deposited data

How the results depend on the processing

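No paired analysis was possible because each line has 1 library and no test was made, and leaving out a replicate was not possible. Alternatives gave 53 further fold changes of Gne, Nans, Nanp, Cmas, Slc35a1, Slc17a5, Neu1 and Neu3, and 0 of them changed sign. Only scaling, or subtracting the median of a gene's neighbours, could have done so, since pseudocounts and filters keep the sign. A value counted as moved beyond 0.1 in log2, a count beyond 1.5 times. With pseudocounts of 0.1 and 5, Nanp was at -0.72 and -0.09 and Slc17a5 at 0.55 and 0.23. Over all genes, a pseudocount of 5 left 102 higher and 176 lower genes beyond 2-fold, and a filter at 5 FPKM left 145 and 221. The lectin median rests on 2 genes that passed the filter through their KO values, so the filter favoured its positive sign. It was 0.74 in the main setting, and 1.34 and 0.26 with pseudocounts of 0.1 and 5. Without a filter it was 0, as was that of the sialyltransferases, and that of the Gne partners was 0.00071. Under the 5 FPKM filter the sialyltransferase median changed sign, to -0.040. Over genes above 0 in both libraries, an alternative chosen after seeing the data, 0 pathway genes were more than 2-fold higher, against 1 when Casd1 is counted with the pseudocount in place of its 0 in WT. Scaling factors of 0.996 and 0.99 moved nothing beyond these limits. With the factor of 0.99 the median over all genes changed sign, from 0.0061 to -0.0074. DESeq size factors and TMM need counts and were not run. For Casd1 and Npl, listed at 0, no fold is given.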
